A study of Bos indicus with 5 samples.

Results

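The genes described here encode the receptors that neurotransmitters and extracellular nucleotides act on. They were followed in the ampulla, the wide oviduct segment where fertilization takes place. Members were chosen by gene symbol alone, and every gene of the table named as an AMPA (*GRIA*), kainate (*GRIK*), NMDA (*GRIN*), delta (*GRID*) or metabotropic (*GRM*) glutamate receptor, a GABA-A (*GABR*), GABA-B (*GABBR*) or glycine (*GLR*) receptor, a nicotinic acetylcholine receptor (*CHRN*), a serotonin receptor (*HTR*) or a P2X or P2Y nucleotide receptor was taken. This gave 96 genes, each with its own symbol, of 24616 genes in all.

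RNA was sequenced from whole-wall tissue of the oviduct on the side of the corpus luteum, collected on day 4 after ovulation was induced, from 5 healthy multiparous Nelore (*Bos indicus*) cows, each giving 1 library. Every cow had received an intravaginal progesterone device (1 g) with 2 mg estradiol benzoate, prostaglandin F2α at device removal and again 6 h later, and then a GnRH agonist. In the 2 cows of the large follicle, large corpus luteum group (LF/LCL), prostaglandin was also given when the device was inserted and the device came out 42 h before GnRH, whereas in the 3 cows of the small follicle, small corpus luteum group (SF/SCL) no such injection was given and the device came out 30 h before GnRH. Cows for sequencing were picked by the study from the extremes of each group in follicle and luteal measures, and another LF/LCL library was set aside by the study, so that the groups are small and selected. The question of the comparison was whether receptor transcripts in this tissue differed between the 2 hormonal settings around ovulation.

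Receptors of these families were first studied in nerve and muscle, but many are also made by epithelial cells. AMPA, kainate and NMDA receptors are cation channels of 4 subunits opened by glutamate, GABA-A, glycine, nicotinic and serotonin type HTR3 receptors are channels of 5 subunits, and P2X receptors are cation channels of 3 subunits opened by ATP. Metabotropic glutamate, GABA-B, P2Y and the other serotonin receptors signal through G proteins. In the oviduct, extracellular ATP and calcium entry are linked to ciliary beating and to secretion, and contraction of the muscle wall is under nerve control. Because most channels are assembled from different subunits, a transcript of 1 subunit does not show that a working receptor was made.

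Values are normalized read counts, the reads of a gene divided by a size factor of its library. The libraries held 13418278 and 16171541 reads in LF/LCL against 14785598, 19592174 and 14277845 reads in SF/SCL (replicates in order), of which 7433, 10109, 11096, 12562 and 11344 reads belonged to receptor genes. The receptor genes thus took 553.9 and 625.1 CPM (reads scaled to the library total) in LF/LCL against 750.5, 641.2 and 794.5 in SF/SCL, and *P2RX2* alone, with 1858, 2611, 3986, 4701 and 3987 reads, held more of them than any other receptor gene. A gene with no read over all 5 libraries is limited to 3 reads (0.0383 CPM), a limit that covers counting error only.

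Of the 96 receptor genes, 77 (80.2%) had at least 1 read in some library, against 77.8% of all genes in the table. Fewer were detected throughout, since 48 receptor genes (50%) had a read in every library, against 65.4% of all genes, and 16 of the 77 had only 1 to 9 reads over all libraries together. By level class, 3 receptor genes had a mean value of 1000 or more (3.12%, against 16.2% of all genes), 35 lay from 15 to under 1000 (36.5%, against 43.2%) and 39 had reads but a mean under 15 (40.6%, against 18.5%). The 3 genes of the highest class were *P2RX2*, *P2RX4* and *GABBR1*. The classes use reads per gene and not reads per transcript length, so they do not order the genes by the number of transcripts.

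No read was found for 19 receptor genes. Among these were the GABA-A subunits *GABRA6*, *GABRG1*, *GABRR2* and *GABRR3*, the glycine receptor subunits *GLRA2*, *GLRA3* and *GLRA4*, the nicotinic subunits *CHRNA4*, *CHRNA9*, *CHRNB3* and *CHRNG*, the serotonin receptors *HTR3A*, *HTR3B*, *HTR3C* and *HTR5A*, and *P2RY4*. The families therefore differed in how much of their set was seen. All 6 P2X subunits, 10 of 11 P2Y receptors, both GABA-B subunits and all 16 AMPA, kainate and NMDA subunits had a read, against 13 of 18 GABA-A subunits, 12 of 16 nicotinic subunits, 2 of 5 glycine receptor subunits and 2 of 5 serotonin-gated channel subunits.

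**Figure D1:**
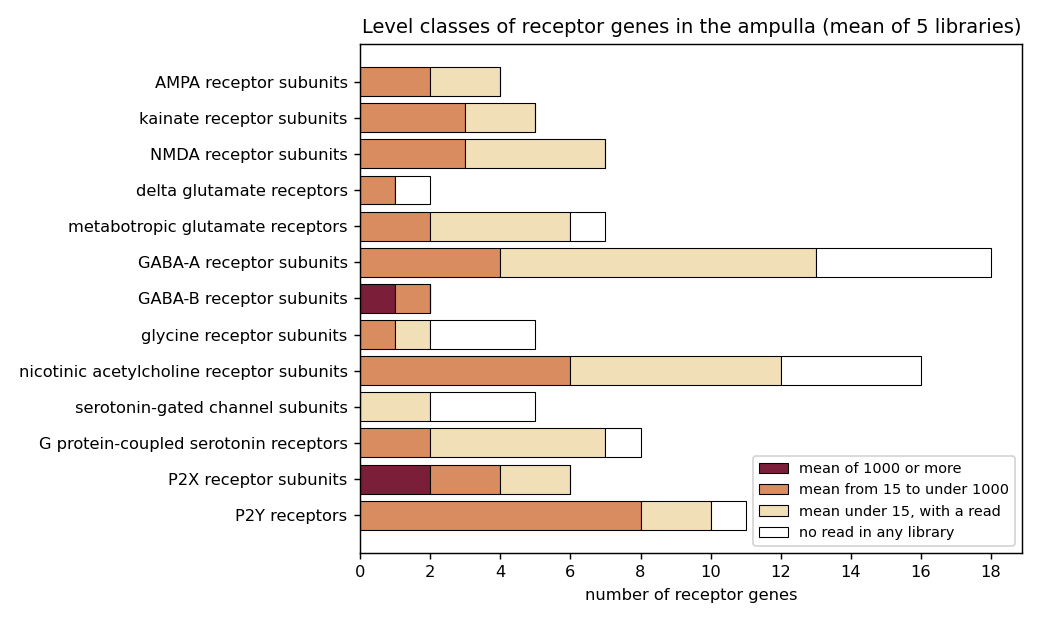
Number of receptor genes (x axis) of each family (y axis) by level class, from the mean normalized read count over 5 libraries. White parts are the 19 genes without a read, and the darkest parts are the 3 genes with a mean of 1000 or more, of which 2 are P2X subunits and 1 is a GABA-B subunit.

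For the comparison of the groups, genes with a mean value above 5 were tested with limma on log2(value + 1), and fold changes are LF/LCL over SF/SCL on that scale, which understates the change of genes with few reads. The filter passed 51 of the 96 receptor genes (53.1%), against 64.2% of all genes. The other 26 receptor genes with a read had between 1 and 24 reads in total and were not tested. With limma, 0 of the 51 receptor genes had an adjusted p under 0.05 (background 0% of 15815 genes tested), and the smallest adjusted p was 0.178, the same as over all genes. The edgeR quasi-likelihood test on the reads recovered from the values also called 0 receptor genes (background 0%). At an unadjusted limma p under 0.05 there were 7 receptor genes (13.7%), against a background of 11.5%. Of these, 5 had higher values in SF/SCL (background 5.86%) and 2 in LF/LCL (background 5.64%). By edgeR, 7 receptor genes also had an unadjusted p under 0.05 (background 11.6%), of which 6 were among the 7 of limma. DESeq2, a count model run beside these, called *GRIN3A* and *GABRP*, 2 receptor genes higher in LF/LCL (background 1.38%), and 2 more that were higher in SF/SCL, *P2RX2* and *GRM3* (background 1.5%).

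The 2 groups did not overlap in 7 receptor genes with higher values in LF/LCL (background 15%) and in 9 with higher values in SF/SCL (background 15.1%). These shares, 13.7% and 17.6% of the 51, were near those of all genes. The median fold change of the tested receptor genes was 0.14 (log2), with 27 genes above 0 and 24 below it, beside a median of 0.005 over all genes tested. Its sign was not stable, as it was -0.18 without LF/LCL replicate 2 and -0.016 when each library had to hold at least 10 reads. Individual receptor genes lay further from 0 than the typical gene, with a median absolute log2 fold change of 0.77 against 0.21, and the receptor genes also had lower levels, as the classes above show.

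**Figure D2:**
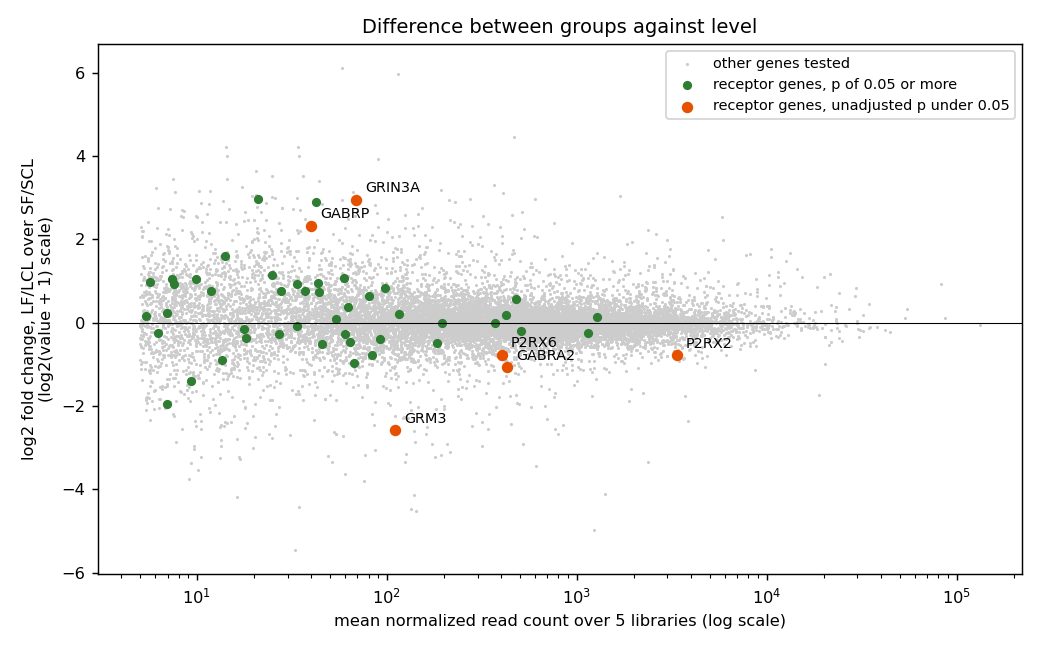
Log2 fold change of LF/LCL over SF/SCL (y axis) against mean normalized read count (x axis, log scale) for the genes tested, with receptor genes in green or, at an unadjusted limma p under 0.05, in orange. The spread of all genes is wider at low means, where most receptor genes lie, and the 6 named genes are on both sides of 0.

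Among the ATP-gated P2X channels, *P2RX2* and *P2RX6* had higher values in SF/SCL. *P2RX2*, a non-desensitizing channel known from sensory nerves and from several epithelia, had 2179 and 2527 normalized reads in LF/LCL against 4144, 3653 and 4279 in SF/SCL. Every SF/SCL library was above both LF/LCL libraries, and the group means were 4025 ± 329 (SD, n = 3) and 2353 ± 246 (SD, n = 2), a 1.71-fold difference. The log2 fold change was -0.77 ± 0.12 (SE), with an adjusted p of 0.178 by limma, 0.222 by edgeR and 8.40e-05 by DESeq2. Its unadjusted p stayed under 0.05 in 14 of 14 alternative settings.

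*P2RX6*, a subunit that forms poor channels alone and joins P2RX2 or P2RX4 in mixed ones, had 322.5 and 242.0 normalized reads in LF/LCL against 394.0, 551.0 and 496.9 in SF/SCL. The groups again did not overlap, with means of 282.2 ± 56.9 (SD, n = 2) and 480.6 ± 79.7 (SD, n = 3). The log2 fold change was -0.77 ± 0.21 (SE), with an adjusted p of 0.307 by limma and 0.0764 by DESeq2, and without LF/LCL replicate 2 the unadjusted limma p was 0.0685. In each library *P2RX6* stood at 9.51% to 15.1% of the *P2RX2* value, and the 2 groups overlapped in this ratio.

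*P2RX4*, a calcium-permeable channel common in epithelia including ciliated ones, differed less. It had 991 and 1059 normalized reads in LF/LCL against 1303, 1271 and 1094 in SF/SCL, and its log2 fold change of -0.25 ± 0.12 had a limma adjusted p of 0.488. The libraries separated by group, but the lowest SF/SCL library was close to the highest LF/LCL library. As a percentage of *P2RX2*, *P2RX4* was 45.5% and 41.9% in LF/LCL against 31.4%, 34.8% and 25.6% in SF/SCL. Both ratios to *P2RX2* are of reads and not per length.

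The other P2X subunits had few reads in most libraries. *P2RX3*, the sensory nerve subunit that pairs with P2RX2, had 3 and 95 reads in LF/LCL against 0, 10 and 1 reads in SF/SCL, so that 88.1% of its summed value came from LF/LCL replicate 2. It was the gene that edgeR added at an unadjusted p of 0.0461, with an unadjusted limma p of 0.105. *P2RX7*, the channel of macrophages and other immune cells, had 3 to 14 reads in a library, and *P2RX1*, the channel of smooth muscle and platelets, had 0 to 6. *P2RX7* overlaps *IFT81* in the annotation used for names.

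None of the G protein-coupled nucleotide receptors tested had an unadjusted limma p under 0.05. *P2RY2*, the receptor for ATP and UTP that drives chloride and mucus secretion in many epithelia, had 401.1 and 542.0 normalized reads in LF/LCL against 566.6, 512.9 and 532.3 in SF/SCL, with a limma adjusted p of 0.692. Its values were close in 4 libraries and lower in LF/LCL replicate 1. *P2RY1*, a receptor for ADP, had 254.5 and 60.0 in LF/LCL against 183.0, 85.5 and 330.5 in SF/SCL, with a limma adjusted p of 0.867. Here the spread within each group was wider than the distance between the groups. The gene listed as *P2RY5*, an older name of the lysophosphatidic acid receptor gene *LPAR6*, had 554 and 224 in LF/LCL against 395, 287 and 386 in SF/SCL, with a limma adjusted p of 0.999. It lies within a neighbouring gene, *RB1*, in the annotation used for names, and reads of the 2 may not be fully separated.

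Of the 9 P2Y receptors tested, 5 had a positive and 4 a negative log2 fold change. The P2Y receptors found on macrophages, *P2RY6*, *P2RY12*, *P2RY13* and *P2RY14*, had values from 13.2 (*P2RY12*, SF/SCL replicate 2) to 160.7 (*P2RY6*, LF/LCL replicate 2). *P2RY6*, *P2RY12* and *P2RY13* were all highest in LF/LCL replicate 2, and *P2RY14*, the receptor for UDP-glucose, was highest in SF/SCL replicate 3, with 122.3. *P2RY12*, *P2RY13* and *P2RY14* overlap *MED12L* in the annotation used for names. *P2RY10*, a receptor of lymphocytes, had 25.8 and 49.4 in LF/LCL against 13.5, 23.3 and 11.8 in SF/SCL, which did not overlap. Its unadjusted limma p was 0.0726, and all 6 tested lymphocyte markers also had higher values in LF/LCL.

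The 2 GABA-B subunits were both detected in every library. *GABBR1*, which binds GABA, had 1256 and 1339 normalized reads in LF/LCL against 1452, 684 and 1624 in SF/SCL. *GABBR2*, which carries the protein to the cell surface and couples it to the G protein, had 31.7 and 42.6 in LF/LCL against 105.0, 28.8 and 128.8 in SF/SCL. SF/SCL replicate 2 was the lowest library for both, and neither gene separated the groups, with limma adjusted p of 0.921 and 0.636. *GABBR2* stood at 2.52% and 3.18% of *GABBR1* in LF/LCL and at 7.23%, 4.20% and 7.93% in SF/SCL, a ratio of reads and not per length. These percentages did not overlap between the groups, but the nearest were 3.18% and 4.20%. How often ratios of other gene pairs separate the groups was not tested.

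GABA-A channels are usually made of alpha, beta and gamma subunits, and of those only a few transcripts were present. *GABRA2*, an alpha subunit, had 152.5 and 416.2 normalized reads in LF/LCL against 519.8, 586.8 and 477.6 in SF/SCL. LF/LCL replicate 1 was far below the other 4 libraries, and the highest LF/LCL library was just under the lowest SF/SCL library. The log2 fold change was -1.06 ± 0.41 (SE), with an unadjusted limma p of 0.0430 and an adjusted p of 0.420. Without LF/LCL replicate 1 the log2 fold change shrank to -0.34, with an unadjusted limma p of 0.137.

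*GABRP*, the pi subunit known from the uterus and other reproductive tissue, had the opposite direction. It had 52.8 and 104.5 normalized reads in LF/LCL against 13.5, 17.1 and 11.8 in SF/SCL, so that the lower LF/LCL library was well above all SF/SCL libraries. The means were 78.7 ± 36.6 (SD, n = 2) and 14.1 ± 2.70 (SD, n = 3), a 5.56-fold difference. The log2 fold change was 2.33 ± 0.47 (SE), with an adjusted p of 0.235 by limma, 0.227 by edgeR and 0.00195 by DESeq2. *GABRE*, the epsilon subunit, had 68.0 and 42.6 in LF/LCL against 87.3, 57.5 and 161.0 in SF/SCL, which overlapped.

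Other GABA-A subunits had few reads in most libraries. *GABRA5* had 39 and 9 reads in LF/LCL against 12, 130 and 0 in SF/SCL, so that 60.2% of its summed value came from SF/SCL replicate 2. The beta subunits *GABRB1* and *GABRB2* had at most 4 reads in a library, and the gamma subunit *GABRG1* had none. The glycine receptor, a related chloride channel, was represented by *GLRB*, the beta subunit that binds the anchoring protein gephyrin. It had 66.8 and 87.1 normalized reads in LF/LCL against 92.5, 127.5 and 85.9 in SF/SCL, with a limma adjusted p of 0.674, and of the alpha subunits *GLRA1* had 1 read in all and *GLRA2*, *GLRA3* and *GLRA4* none.

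Among the glutamate-gated channels, the NMDA family held the gene with the largest difference. *GRIN3A*, a subunit that lowers calcium entry and with GRIN1 can form channels opened by glycine, had 97.3 and 195.5 normalized reads in LF/LCL against 22.9, 17.9 and 11.8 in SF/SCL. The 2 groups were far apart, although the LF/LCL libraries also differed from each other. The means were 146.4 ± 69.4 (SD, n = 2) and 17.5 ± 5.54 (SD, n = 3), an 8.36-fold difference. The log2 fold change was 2.95 ± 0.48 (SE), with an adjusted p of 0.182 by limma, 0.205 by edgeR and 3.31e-06 by DESeq2, and the unadjusted p was under 0.05 in all 13 alternative settings that kept the gene. The study states a further condition, a mean above the SD. Taken over the libraries here, that condition would remove *GRIN3A* and leave 15507 genes. The study tested 15815 genes, the number that passes a mean above 5 alone, so it does not appear to have applied the condition in this form. *GRIN3A* overlaps another gene, *PPP3R2*, in the annotation used for names.

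*GRIN1*, the subunit that every NMDA receptor needs, had 125.5 and 137.4 normalized reads in LF/LCL against 83.2, 97.9 and 47.2 in SF/SCL. Both LF/LCL libraries were above all SF/SCL libraries, and the log2 fold change was 0.84 ± 0.37 (SE), with a limma adjusted p of 0.462. *GRIN1* also overlaps another gene, *LRRC26*, in the annotation used for names. As a percentage of *GRIN1*, *GRIN3A* was 77.6% and 142% in LF/LCL against 27.5%, 18.3% and 25.0% in SF/SCL, again in reads and not per length, so that the 2 genes did not differ in the same proportion. The glutamate-binding subunits of the NMDA receptor had smaller counts. *GRIN2B* had 28 to 60 reads in a library and lower values in LF/LCL, where the nearest libraries of the 2 groups had 38.7 and 38.9. *GRIN2D* with 7 to 16 reads and *GRIN2C* with 2 to 10 had higher values in both LF/LCL libraries than in any SF/SCL library, and *GRIN2A* and *GRIN3B* had 1 read and 5 reads in all.

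Of the AMPA subunits, *GRIA1* had 602.8 and 545.9 normalized reads in LF/LCL against 593.7, 233.1 and 416.4 in SF/SCL, with a limma adjusted p of 0.621. The groups overlapped, and SF/SCL replicate 2 was the lowest. *GRIA2*, the subunit that makes AMPA channels tight to calcium, had 2 reads, both in that same library. The kainate subunits were led by *GRIK5* and *GRIK4*, which need a GRIK1 to GRIK3 partner to form a channel. *GRIK5* had 130.2 and 114.2 in LF/LCL against 65.5, 134.5 and 132.0 in SF/SCL, and *GRIK4* had 49.3 and 55.2 in LF/LCL against 76.9, 72.3 and 66.5 in SF/SCL. *GRIK4* did not overlap between the groups, with a limma adjusted p of 0.595, whereas *GRIK5* did. Of the partners, *GRIK2* had 6 to 37 reads in a library, *GRIK3* had 1 to 15 and *GRIK1* had 1 in all. *GRID1*, a delta receptor that binds synapse-organizing proteins and opens to no known transmitter in the usual way, had 326.0 and 539.1 in LF/LCL against 217.3, 324.9 and 712.6 in SF/SCL, with a limma adjusted p of 0.929 and the groups fully overlapping.

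**Figure D3:**
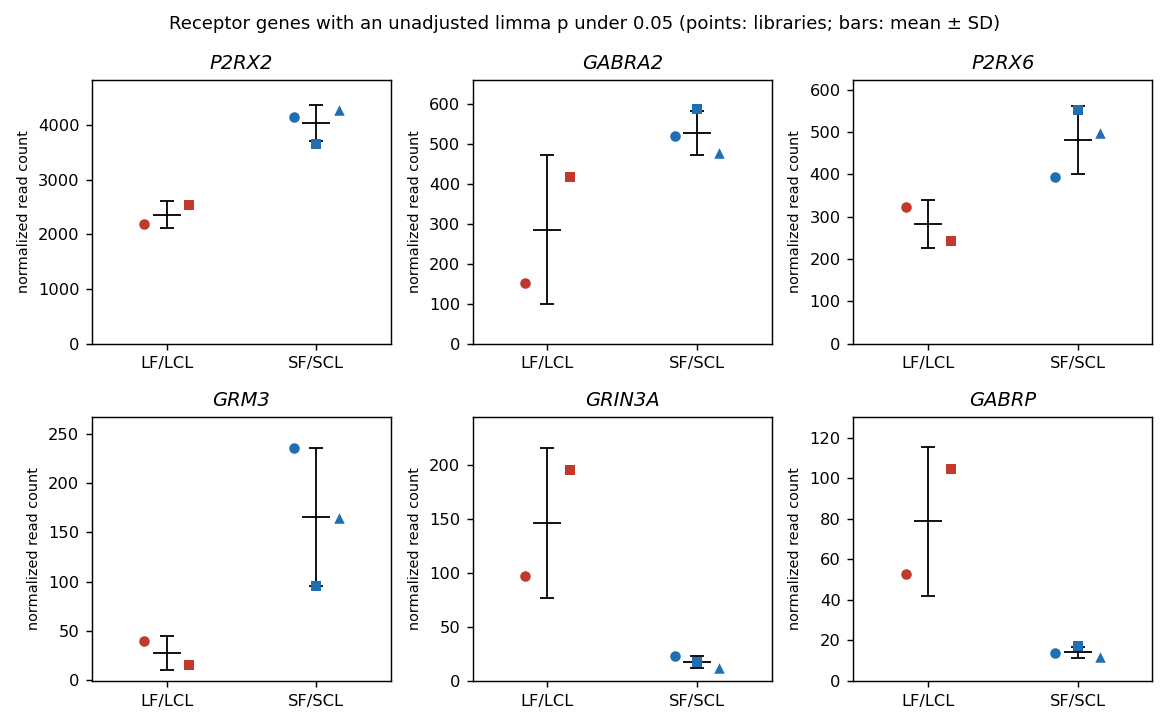
Normalized read count (y axis) of 6 receptor genes with an unadjusted limma p under 0.05, per library in LF/LCL (red) and SF/SCL (blue), with circles, squares and triangles for replicates 1, 2 and 3 and bars for mean ± SD. The groups do not overlap in any of the 6 (background 30.1% of all genes tested), but *GABRA2* separates narrowly. The 6 were picked by their p from these same values, so this lack of overlap is not a separate result.

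The metabotropic receptor *GRM3*, which inhibits adenylate cyclase, had higher values in SF/SCL. It had 39.9 and 15.5 normalized reads in LF/LCL against 236.0, 95.6 and 164.2 in SF/SCL. All 3 SF/SCL libraries were above both LF/LCL libraries, with means of 165.3 ± 70.2 (SD, n = 3) and 27.7 ± 17.2 (SD, n = 2), a 5.97-fold difference. The log2 fold change was -2.59 ± 0.55 (SE), with an adjusted p of 0.248 by limma, 0.275 by edgeR and 0.00118 by DESeq2. *GRM7*, a receptor of low glutamate affinity, had 22.3 and 144.2 in LF/LCL against 69.7, 56.0 and 4.29 in SF/SCL, and varied more within the groups than between them. *GRM5*, which acts through phospholipase C, had 0 to 17 reads in a library, and *GRM2*, *GRM4* and *GRM6* had 1, 1 and 7 reads in all.

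For acetylcholine, subunits of the muscle and the ganglionic types of nicotinic receptor were both present, and 0 of the 10 tested nicotinic genes had an unadjusted limma p under 0.05. *CHRNB1*, the beta subunit of the muscle receptor, had 173.6 and 212.9 normalized reads in LF/LCL against 157.0, 189.6 and 246.8 in SF/SCL, with a limma adjusted p of 0.990. *CHRNE*, the epsilon subunit of the adult muscle receptor, had 64.5 and 56.1 in LF/LCL against 25.99, 44.3 and 24.7 in SF/SCL, with an unadjusted limma p of 0.0568 and an adjusted p of 0.454. The groups overlapped in *CHRNB1* and did not in *CHRNE*, and both genes overlap a neighbour in the annotation used for names. The other muscle subunits, *CHRNA1* and *CHRND*, had 0 to 20 and 1 to 13 reads in a library.

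The ganglionic subunits *CHRNA3*, *CHRNA5* and *CHRNB4* lie in 1 gene cluster, where *CHRNA3* and *CHRNA5* overlap. *CHRNA3* had 116.1 and 37.7 normalized reads in LF/LCL against 50.9, 36.5 and 71.9 in SF/SCL, which overlapped, and *CHRNA5* had the narrow range of 23.5 to 32.2. *CHRNB4*, the usual partner of *CHRNA3*, had 10 and 1 reads in LF/LCL against 3, 0 and 2 in SF/SCL. Single libraries held most of the reads of several other nicotinic genes. *CHRNA2* had 1 and 58 reads in LF/LCL against 9, 5 and 0, and *CHRNA7*, the subunit of the receptor on many immune cells, had 7 and 5 against 8, 7 and 38. *CHRNA6* had 77 and 50 reads in LF/LCL against 10, 0 and 59 in SF/SCL, and its log2 fold change of 2.90 ± 1.69 (SE) had a limma adjusted p of 0.572. *CHRNA10*, known to work with *CHRNA9*, had 11 to 41 reads, and *CHRNA9* had none.

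Serotonin receptor transcripts were sparse. *HTR6*, which raises cyclic AMP, had 45.7 and 66.8 normalized reads in LF/LCL against 64.5, 47.4 and 45.1 in SF/SCL, with a limma adjusted p of 0.948. *HTR2A*, which acts through phospholipase C and contracts smooth muscle, had 29.3 and 34.8 in LF/LCL against 45.7, 34.2 and 24.7 in SF/SCL. Both genes overlapped between the groups. *HTR7*, which also raises cyclic AMP, had 20 reads in LF/LCL replicate 2 and 3 to 7 in the other libraries. Of the serotonin-gated channel only *HTR3D* and *HTR3E* had reads, 1 to 9 in a library, and *HTR3A*, without which no channel of this type forms, had none.

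**Figure D4:**
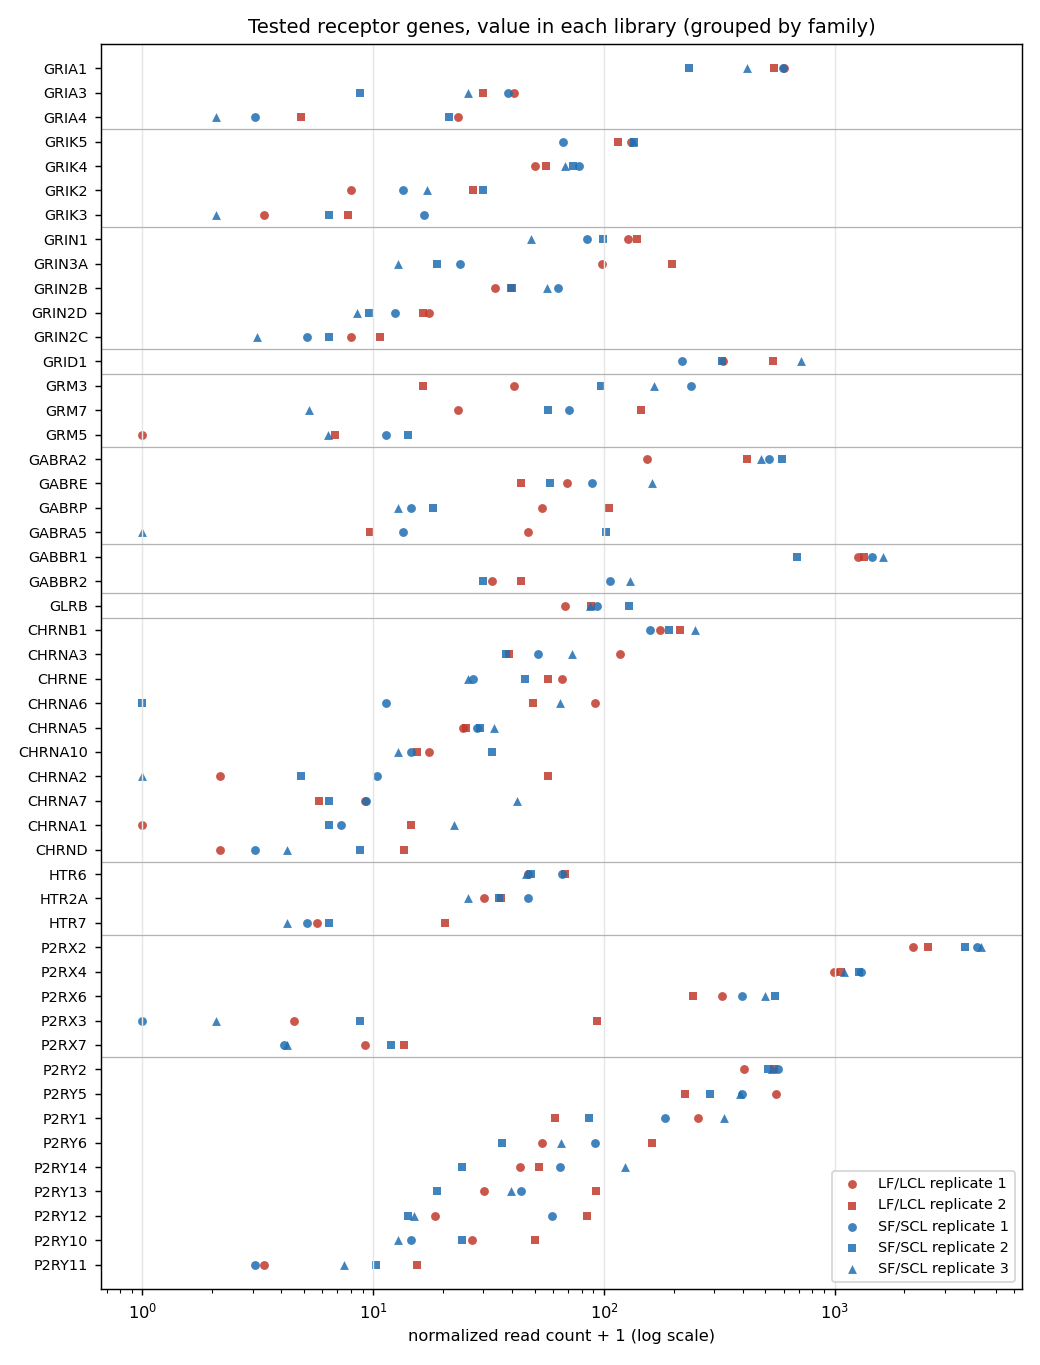
Normalized read count + 1 (x axis, log scale) of 50 tested receptor genes (y axis, grouped by family) in each library, red for LF/LCL and blue for SF/SCL. The groups are apart in 15 of the 50 genes, near the background of 30.1% over all genes tested. Among the 15 are *P2RX2*, *GRM3*, *GRIN3A* and *GABRP*, while *P2RX3* and *CHRNA2* each have 1 LF/LCL library far above the others.

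The tissue was the whole wall, and in such bulk samples fewer cells of a type and less RNA per cell cannot be told apart. Reads were found for all 8 ciliated and all 6 secretory markers, *OVGP1* of the oviduct among them, which both oviduct segments would hold and which therefore do not check the ampulla label. The 8 ciliated markers summed to 52181 to 64585 normalized reads in LF/LCL and to 77184 to 78535 in SF/SCL, and all 8 had higher values in SF/SCL, 7 of them with an unadjusted limma p under 0.05. The 9 smooth muscle markers moved the other way, with sums of 56335 to 111521 in LF/LCL and 14344 to 37964 in SF/SCL, all 9 higher in LF/LCL and 8 with an unadjusted limma p under 0.05. Lymphocyte markers summed to 790.4 to 1020.2 in LF/LCL and to 478.6 to 505.9 in SF/SCL. Of the 14 neuron markers 7 were tested, with sums of 271.0 to 273.3 in LF/LCL and 203.8 to 329.5 in SF/SCL, and *GAP43*, a marker of growing axons, was at 0. The near-equal sums held members that went opposite ways. *SNAP25*, a protein of transmitter release, had 42.2 and 31.0 normalized reads in LF/LCL against 108.1, 172.5 and 166.3 in SF/SCL, with an adjusted p of 0.193 by limma and 7.87e-05 by DESeq2, which is the direction of *P2RX2* and *GRM3*. *DBH*, the enzyme that makes noradrenaline, with 25.8 and 47.4 against 5.20, 0 and 7.51, and *PRPH*, a filament protein of peripheral neurons, with 120.8 and 65.8 against 39.5, 44.3 and 21.5, had higher values in LF/LCL without overlap, the direction of *GRIN3A* and *GABRP*.

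Markers of glia and of dividing cells also differed. The 9 glial markers summed to 33416 to 40726 in LF/LCL and 15259 to 24778 in SF/SCL. Most of each sum came from *S100B*, with 27894 and 35927 against 20010, 13945 and 9770 and a DESeq2 adjusted p of 0.0173. *ERBB3* gave most of the rest, with 5417 and 4667 against 4621, 5230 and 5284. Of the 8 tested, 5 had higher values in LF/LCL and 3 lower ones. Among the latter, *GFAP*, a filament protein of glia, had 14.1 and 5.81 in LF/LCL against 90.5, 19.4 and 140.6 in SF/SCL, the direction of *GRM3*, with an adjusted p of 0.370 by limma and 0.0295 by DESeq2. All 4 proliferation markers had higher values in LF/LCL without overlap and with an unadjusted limma p under 0.05, the direction of *GRIN3A* and *GABRP*, with sums of 230.4 to 580.5 in LF/LCL and 96.6 to 147.7 in SF/SCL. The part of these cell types in the receptor differences was not tested.

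Set against the ciliated markers alone, the receptor differences took different courses. *P2RX2* was 4.18% and 3.91% of the ciliated marker sum in LF/LCL against 5.28%, 4.73% and 5.52% in SF/SCL, without overlap. The sum is weighted towards *TPPP3* and *CAPS*, with means 1.27-fold and 1.23-fold higher in SF/SCL. *FOXJ1*, *DNAH5*, *CCDC39*, *RSPH1*, *ARMC3* and *SNTN* ran from 1.29-fold to 1.81-fold, beside 1.71-fold for *P2RX2*. *P2RX2* was above *ARMC3* in LF/LCL replicate 2 and SF/SCL replicate 1 and below it elsewhere. Against that marker alone the groups thus overlapped. They also overlapped against *SNTN*, *RSPH1*, *CCDC39* or *DNAH5* alone, but not against *FOXJ1*, *TPPP3* or *CAPS* alone. *P2RX6* was 0.618% and 0.375% in LF/LCL against 0.502%, 0.714% and 0.642% in SF/SCL, and *GABRA2* was 0.292% and 0.644% against 0.662%, 0.760% and 0.617%. For both of these genes the groups overlapped on this scale. *GRM3*, at 0.0764% and 0.0240% in LF/LCL against 0.301%, 0.124% and 0.212% in SF/SCL, did not overlap.

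The genes higher in LF/LCL were set against the smooth muscle sum in the same way. *GRIN3A* was 0.0873% and 0.347% in LF/LCL against 0.0668%, 0.0471% and 0.0823% in SF/SCL, so that LF/LCL replicate 1 was only just above the highest SF/SCL library. *GABRP* was 0.0473% and 0.186% in LF/LCL against 0.0395%, 0.0450% and 0.0823% in SF/SCL, which overlapped. *GRIN1* was 0.113% and 0.244% in LF/LCL against 0.243%, 0.258% and 0.329% in SF/SCL. The groups overlapped, and on this scale *GRIN1* was no longer higher in LF/LCL. Against the secretory markers, whose sums were 146329 to 173947 in LF/LCL and 146393 to 174883 in SF/SCL, *GABRP* was 0.0303% and 0.0714% in LF/LCL against 0.00923%, 0.00978% and 0.00722% in SF/SCL, without overlap. Which cells made each receptor was not measured.

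**Figure D5:**
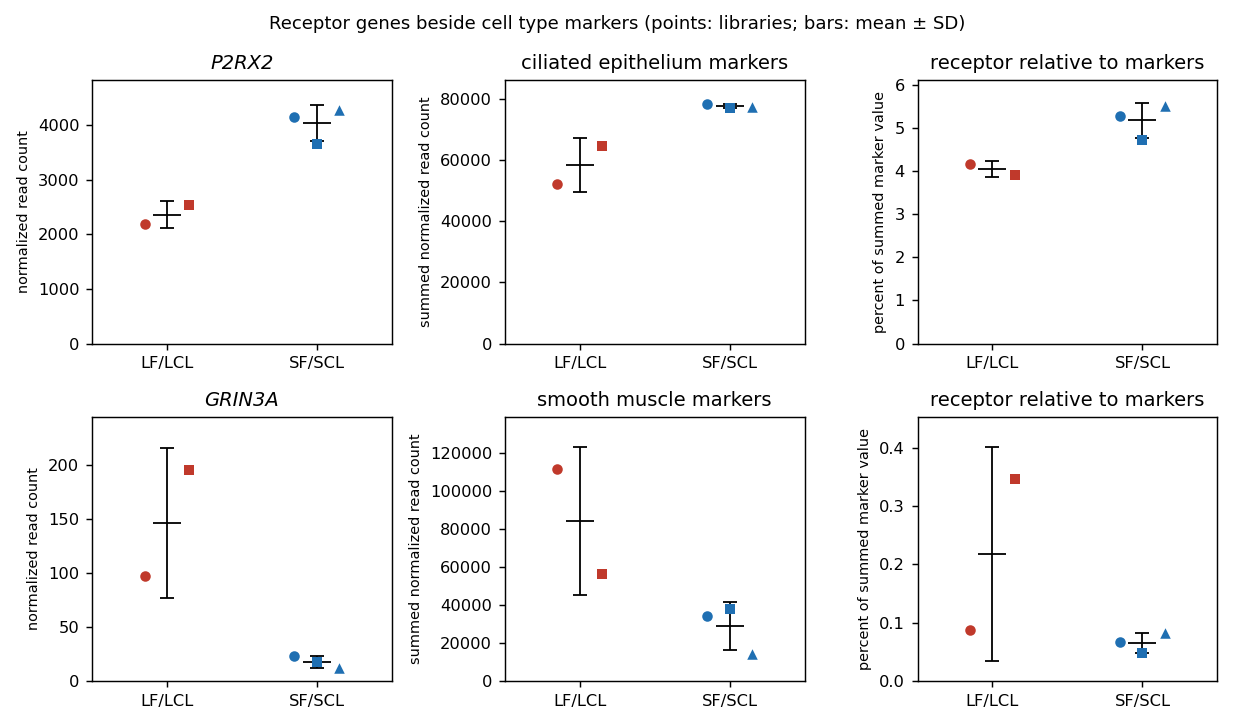
*P2RX2* beside the summed ciliated markers (top) and *GRIN3A* beside the summed smooth muscle markers (bottom), as normalized read counts and as the receptor in percent of the marker sum (y axes), per library with mean ± SD in LF/LCL (red) and SF/SCL (blue). The groups are apart in all 6 panels, but in the last one LF/LCL replicate 1 at 0.0873% is close to SF/SCL replicate 3 at 0.0823%. The ciliated sum is weighted towards *TPPP3* and *CAPS*, and against *ARMC3* and several other single ciliated markers the groups overlap in *P2RX2*.

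Genes that make, release, take up or degrade the same transmitters, or hold the receptors in place, were read beside the receptors. Of 98 such symbols 92 were matched, and 67 of their genes were tested. With limma, edgeR and DESeq2 0 of them had an adjusted p under 0.05, and 7 (10.4%, background 11.5%) had an unadjusted limma p under 0.05. The groups did not overlap in 17 (25.4%, background 30.1% in either direction). No read was found for *CHAT*, *SLC18A3* and *SLC5A7*, which make and load acetylcholine and take up choline in cholinergic nerves, nor for *GAD1* and *SLC32A1*, the GABA-making enzyme and the GABA vesicle carrier. *SLC1A2* and *SLC17A6*, carriers of glutamate, were at 0 as well.

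On the nucleotide side, *SLC17A9*, the carrier that loads ATP into vesicles, had 196 and 226 normalized reads in LF/LCL against 317, 304 and 472 in SF/SCL. This was the direction of *P2RX2*, with a log2 fold change of -0.76 and a limma adjusted p of 0.344. *ENPP3*, an enzyme that degrades extracellular ATP, had 3556 and 4729 in LF/LCL against 3715, 4707 and 3721 in SF/SCL, with overlap, and *ALPL*, an alkaline phosphatase that removes phosphate from nucleotides, also overlapped. The adenosine receptors *ADORA2B* and *ADORA1* ranged from 539.4 to 900.2 and from 297.3 to 768.6, and the groups overlapped in both.

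For glutamate, *SLC1A1*, an uptake carrier of neurons and epithelia, had 2191 and 2697 in LF/LCL against 1962, 1403 and 1062 in SF/SCL, and *GLUL*, which turns glutamate into glutamine, had 3558 and 2874 against 2513, 2052 and 1989. Both had higher values in LF/LCL without overlap, with limma adjusted p of 0.375 and 0.308. The scaffold proteins *DLG3* and *DLG1* ranged only from 1613 to 2007 and from 1326 to 1599. For the inhibitory transmitters, *SLC6A9*, the glycine uptake carrier, had 4107 and 5211 in LF/LCL against 3154, 2843 and 815 in SF/SCL in 1 of the 2 entries of that symbol (ENSBTAG00000008690), and *ALDH5A1*, the last enzyme of GABA breakdown, had 2319 and 1935 against 1870, 1705 and 1405. The groups did not overlap in these 2 entries, with limma adjusted p of 0.493 and 0.460, whereas the other *SLC6A9* entry, with 27.9 to 67.8 over the 5 libraries and an adjusted p of 0.718, overlapped. The anchoring genes *GABARAP* and *GPHN* ranged from 6550 to 7239 and from 767 to 1108.

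For acetylcholine, *ACHE*, the enzyme that breaks it down, ran from 9.33 (SF/SCL replicate 2) to 1364 (LF/LCL replicate 2), whereas *COLQ*, its collagen tail, stayed between 1169 and 1444. *LY6E* and *LYNX1*, proteins that modulate nicotinic receptors or belong to the family that does, had higher values in LF/LCL. *LY6E* had 30126 and 50625 against 27177, 21711 and 17475, and *LYNX1* had 83.3 and 48.4 against 22.9, 16.3 and 24.7. Their limma adjusted p were 0.362 and 0.313. *AGRN*, which clusters muscle receptors, overlapped, with 4170 to 6824 over the 5 libraries. The serotonin-degrading enzymes went in opposite directions, with *MAOB* at 1610 and 1006 against 850, 761 and 576 and *MAOA* at 1031 and 876 against 1227, 1332 and 1070, and limma adjusted p of 0.345 and 0.428.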

How the data were processed

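RNA from the ampulla of 5 cows, grouped by the labels, was sequenced by the study from poly(A) libraries. The authors aligned reads to the cattle genome with TopHat2 2.0.8 and Bowtie2 2.1.0, counted uniquely mapped reads per Ensembl gene with HTSeq 0.5.4p2 and divided them by a DESeq 1.12.1 size factor per library. The deposited unit is therefore a normalized signal. Whether strand was used is not given in the sources used here, and overlapping or antisense genes are uncertain. The labels give no batch and no shared replicate numbers. Replicates are separate cows numbered in order of deposit.

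Dividing by the step of each library, the normalized value of 1 read, gave whole reads for 100% of nonzero values (tolerance 0.001 on the normalized scale). The step was started at the smallest nonzero value and refined on larger values. Genes with a mean value above 5 were tested, two-sided, with limma 3.58.1 (lmFit, then eBayes with trend and robust) on log2(value + 1), with Benjamini-Hochberg adjustment over 15815 genes and a threshold of 0.05. edgeR 4.0.16 (quasi-likelihood, TMM) and DESeq2 1.42.0 were run on the recovered reads, in R 4.3.3. The fits were tested on simulated data. The SD is over cows of a group. Named receptor genes had a mean of at least 100, an unadjusted limma p under 0.05 or an adjusted p under 0.05 by any tool, or were the highest of a family or partners of such genes. Other receptor genes with few reads or high values in 1 library were chosen after their values were seen. Companion genes were the 2 highest of each list and those with an unadjusted limma p under 0.05, with those at 0. The members and lists were chosen with earlier results of these data known. A gene table of another assembly gave names and overlaps for 88 of the 96 genes, and no coordinates were used. In it 34 receptor genes overlap another gene, and only some of them are marked in the text. Some receptor genes are counted but not reported here by name.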

Additional observations from a re-analysis of the deposited data

How the results depend on the processing

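The count of receptor genes with an adjusted p under 0.05 was 0 by limma, 4 by DESeq2 and 0 in every other alternative run (edgeR, other pseudocounts, scalings and filters, and each library left out, range 0 to 0), and the companion count was 0 throughout. The tool alone made that change, and the cause was not tested. Over all 15815 genes tested, DESeq2 called 457. The 7 receptor genes at an unadjusted limma p under 0.05 ranged from 5 to 8. Over all genes tested, the main count of 1819 ranged from 1497 to 2013, of 14066 to 19161 genes depending on the filter. Fits with a lone LF/LCL library are not in these ranges. The median log2 fold change of 0.14 became -0.016 when at least 10 reads in each library were required, an alternative chosen after seeing the data, and ran from -0.18 (without LF/LCL replicate 2) to 0.19 with 1 library left out. The count of genes without overlap, 16, rose to between 20 and 31 with 1 library left out, where fewer samples have to be apart. The count over all 15815 genes tested rose as well, from 4765 to between 6510 and 9024. The 77 detected receptor genes became 48 with a read in every library, 51 with a mean above 5 and 38 with a mean of at least 15, and 74 to 77 with 1 library left out. Among named genes, the fold change (log2) turned in sign when 1 library was left out, with ranges over the left-out libraries from -0.20 to 0.66 for *GRID1* (negative without LF/LCL replicate 2 at -0.18 or SF/SCL replicate 1), from -0.17 to 0.36 for *HTR6* (negative without LF/LCL replicate 2, and at -0.00012 without SF/SCL replicate 3), from -0.24 to 0.38 for *GABBR1* (negative without SF/SCL replicate 2), from -0.13 to 0.39 for *GRIK5* (negative without SF/SCL replicate 1), from -0.17 to 0.16 for *CHRNB1* (positive without LF/LCL replicate 1 at 0.13 or SF/SCL replicate 3), from -0.42 to 0.014 for *P2RY2* (positive without LF/LCL replicate 1), from -0.65 to 0.65 for *P2RY5* (positive without LF/LCL replicate 2, and at 0.08 and 0.06 without SF/SCL replicates 1 and 3) and from -1.51 to 0.55 for *P2RY1* (positive without LF/LCL replicate 2). *P2RY5* also turned with edgeR (0.13) and DESeq2 (0.13). None of these genes was called in any setting. With 2 and 3 libraries a group, a lone LF/LCL library was assumed to vary like SF/SCL, and depth limits the genes with few reads. No paired analysis was possible because the groups were made of different cows.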
